A study of Mus musculus with 30 samples.

Results

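Mature skeletal muscle sarcomere genes were followed in the fracture callus of control and P-Apex1KO mice. The set held 43 genes taken by what their proteins do in an adult muscle fibre, out of 55416 genes in the count table. All 43 passed the filter on low counts in each comparison. They lie on 17 chromosomes and fall into 12 thin filament genes, 10 thick filament genes, 4 genes of titin and the M-band, 9 Z-disc genes, 5 calcium-handling genes and 3 genes of energy supply, oxygen binding or small heat shock function.

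Bulk RNA-seq was run on calluses of 30 mice taken 3, 6, 10 or 14 days post fracture (dpf), after a closed, non-stabilized fracture of the left tibia at 7 to 12 weeks of age. P-Apex1KO mice (Prrx1-Cre;Apex1 C/C) lose Apex1, which encodes a DNA base excision repair endonuclease, in cells of the Prrx1 lineage, the mesenchyme of the limb bud. WT animals were littermates that were Prrx1-Cre+/-;Apex1 C/+, Apex1 C/C or Apex1 C/+, so all WT mice carried at least 1 conditional (C) Apex1 allele and some carried the Cre. Cells outside the Prrx1 lineage keep Apex1 in P-Apex1KO mice. The groups held 4 WT and 4 P-Apex1KO mice at 3-dpf, 5 and 3 at 6-dpf, 4 and 3 at 10-dpf, and 4 and 3 at 14-dpf, of both sexes except that the 3 P-Apex1KO mice at 14-dpf were all female and 1 of the 4 WT mice there was female.

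A sarcomere is the contractile unit of striated muscle. Myosin thick filaments slide along actin thin filaments that are anchored in Z-discs, titin spans from the Z-disc to the M-band, and calcium released from the sarcoplasmic reticulum frees the troponin and tropomyosin switch on the thin filament. Muscle fibres arise from the somites and not from Prrx1-lineage limb mesenchyme, and a fracture callus lies against the muscles of the lower leg. Fast fibres and slow fibres use different isoforms of myosin, troponin and calcium pump.

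The 250 bases upstream of the members' RefSeq starts were read for motifs known from muscle promoters. Of the 43 members 34 had an entry in the RefSeq promoter table, and their windows were placed in the GRCm39 build by exact match of the sequence. Both strands were searched, and the same window was read before 32851 starts of the RefSeq promoter table. The E-box CAGCTG was in 13 of 34 windows (38.2%, against 13.0% of all starts), the M-CAT element CATTCC in 11 (32.4%, against 12.6%) and the TATA box TATAAA in 8 (23.5%, against 12.4%). The MEF2 site was in 6 of 34 (17.6%, against 2.92%) and the CArG box in 5 (14.7%, against 1.47%). These shares are not like for like, since each member had 1 start, the nearest to the canonical start of the GENCODE annotation. The 32851 include every start of a gene. Some windows lay wholly in annotated exons, as those of Myh1, Myh4, Tpm2 and Atp2a1, and the Myh4 start lies 2785 bases from the canonical start. A TATA box can overlap a MEF2 site, and a letter match is a description and not a bound site. Windows were chosen for display among the 5 that hold at most 1 base of an annotated exon, without that of Myl2, whose RefSeq start lies 7596 bases from the canonical start. The 4 are shown 5′ to 3′ with the matched motif in capitals, since they cover a fast light chain, the giant spring protein, the oxygen carrier and the slow myosin.
Mylpf (chr7:126810530-126810779, plus strand, GRCm39; E-box): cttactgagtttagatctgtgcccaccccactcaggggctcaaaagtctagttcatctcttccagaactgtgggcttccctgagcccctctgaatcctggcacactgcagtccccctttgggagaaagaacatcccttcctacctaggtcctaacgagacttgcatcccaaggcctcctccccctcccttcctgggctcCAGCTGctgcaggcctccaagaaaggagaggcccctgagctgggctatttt
Ttn (chr2:76812892-76813141, minus strand, GRCm39; MEF2 site): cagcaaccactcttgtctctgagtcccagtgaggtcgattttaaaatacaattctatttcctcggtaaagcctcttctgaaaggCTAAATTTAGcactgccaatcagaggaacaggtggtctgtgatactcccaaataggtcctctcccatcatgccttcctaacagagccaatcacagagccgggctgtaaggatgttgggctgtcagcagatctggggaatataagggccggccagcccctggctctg
Mb (chr15:76906988-76907237, minus strand, GRCm39; E-box): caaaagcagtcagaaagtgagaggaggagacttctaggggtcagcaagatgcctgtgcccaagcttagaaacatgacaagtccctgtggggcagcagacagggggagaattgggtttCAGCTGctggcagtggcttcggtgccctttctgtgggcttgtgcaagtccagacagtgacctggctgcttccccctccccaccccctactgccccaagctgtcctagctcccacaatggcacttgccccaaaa
Myh7 (chr14:55232084-55232333, minus strand, GRCm39; M-CAT): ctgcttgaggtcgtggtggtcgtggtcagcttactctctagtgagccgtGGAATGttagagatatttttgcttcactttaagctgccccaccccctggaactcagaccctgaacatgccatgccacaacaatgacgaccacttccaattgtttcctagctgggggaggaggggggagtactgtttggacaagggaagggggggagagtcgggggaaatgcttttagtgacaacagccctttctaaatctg
The E-box began 51 bases before the start in Mylpf and 133 bases before it in Mb. The MEF2 site began 166 bases before the Ttn start, which lies 92 bases from the canonical start of the GENCODE annotation, and the M-CAT element, read on the other strand, lay 201 bases before the Myh7 start.

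Each library held between 18334389 and 43111491 counts. Levels are given as CPM, the count of a gene scaled to the size of its library, after TMM scaling across all 30 libraries, and differences between genotypes as log2 fold changes of P-Apex1KO against WT from a fit with sex as a covariate. Adjusted p-values are those of the quasi-likelihood test in edgeR, corrected by Benjamini-Hochberg over all genes tested. Apex1 itself was below every WT mouse in every P-Apex1KO mouse at 6-, 10- and 14-dpf, with 15.1 to 15.9 CPM against 20.7 to 28.9 at 6-dpf, 14.1 to 16.8 against 16.95 to 27.5 at 10-dpf, and 14.2 to 18.6 against 19.8 to 27.2 at 14-dpf. Apex1 fell at 6-dpf (log2 fold change -0.67, adjusted p = 0.0071) and 10-dpf (-0.65, adjusted p = 0.0278), and had -0.29 at 14-dpf (adjusted p = 0.367) and -0.15 at 3-dpf (adjusted p = 0.927). At 3-dpf the groups overlapped. The 4 libraries labelled P-Apex1KO gave 18.4, 29.1, 27.6 and 34.6 CPM, and the 4 WT libraries 26.5 to 33.1, so that replicate 4 labelled P-Apex1KO lay above every WT mouse. At 3-dpf the members' median and count called, and the values of some single genes, are therefore given with and without replicate 4 labelled P-Apex1KO. Other results at 3-dpf include that library unless stated. The callus label was checked against its markers: the summed level of 7 cartilage markers was 26075 to 48588 CPM in WT at 6-dpf and that of 7 osteoblast markers 38203 to 53622 CPM, while at 3-dpf the cartilage sum was 237 to 264 CPM. Skeletal muscle genes were present in each library, and the 43 members took 0.416% to 1.49% of the counts of a WT library and 1.02% to 4.45% of those of a P-Apex1KO library. The heart isoforms summed to 1.38 to 4.57 CPM over 6 genes, of which 3 were under 1 CPM in every mouse.

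The sarcomere genes were higher in P-Apex1KO calluses at 6-dpf, and their values pointed the same way on the other days without passing the test across all genes. At 6-dpf 31 of 43 members rose and none fell, where 5.31% of the 20260 genes tested rose and 5.61% fell. All 43 log2 fold changes were above 0, with a median of 1.20 against 0.01 over all genes tested. The summed member level was 8469 to 15017 CPM in the 5 WT mice and 18187, 39553 and 27018 CPM in the 3 P-Apex1KO mice, so the groups did not overlap and the means differed 2.48-fold. In 35 members every P-Apex1KO mouse was above every WT mouse, which held for 8.71% of all genes tested. In these bulk libraries more muscle fibre RNA in the piece of tissue and more RNA of these genes per fibre cannot be told apart. The count of 31 depended on single mice: it was 3 without WT replicate 2, 5 without WT replicate 4, 11 without P-Apex1KO replicate 3 and 20 without P-Apex1KO replicate 2, and 5 when genes with low counts were kept in the test. The share of all genes called in these other fits is not given here. Whether the loss was particular to the members therefore cannot be read from their counts.

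At 3-dpf no member passed the test, and neither did any of the 19866 genes tested (percent called 0). The DESeq2 Wald test called 13 members and 85 genes, and 29 members and 1216 genes had an unadjusted p under 0.05. Of the 43 log2 fold changes 42 were above 0, with a median of 0.93 against -0.0028 over all genes tested, and a smallest adjusted p of 0.686 for Xirp2. In 14 members every library labelled P-Apex1KO was above every WT library, against 1.97% of all genes tested. Without P-Apex1KO replicate 4 the median was 1.09 and 1 member, Xirp2, was called, with an adjusted p of 0.049. That library was the lowest of its group in 41 members, so leaving it out raises the median. With the replicate number as a block, 1 member, Hspb6, was called, with an adjusted p of 0.0321. For the fit without replicate 4 and the fit with the block the share of all genes called is not given here. These counts of 1 are therefore not read as a result about the members.

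At 10-dpf no member was called, where 3.01% of 18910 genes tested rose and 3.44% fell. The DESeq2 Wald test called 12 members, and 30 had an unadjusted p under 0.05. All 43 values were above 0, with a median log2 fold change of 1.33 against -0.0031 over all genes tested, and the smallest adjusted p was 0.0581 for Tmod4. In 8 members the groups did not overlap, all with P-Apex1KO above WT, which held for 8.79% of all genes tested. The value turned on single mice: 29 members were called without P-Apex1KO replicate 2 and 4 without WT replicate 4, while without P-Apex1KO replicate 1 the median was 0.41. The share of all genes is not given here for DESeq2, the unadjusted p or the fits with a mouse left out. Those counts are therefore not read as a result about the members.

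At 14-dpf no member was called, where 4.28% of 20228 genes tested rose and 7.04% fell. The DESeq2 Wald test called 5 members, and 3 had an unadjusted p under 0.05. The median log2 fold change was 0.87 against 0.04 over all genes tested, and 40 of 43 values were above 0. With sex in the model this comparison rests on the 1 WT female, replicate 1, whose summed member level of 14643 CPM stood above the 4581 to 5525 CPM of the 3 WT males. Without the sex term 24 members rose and the median was 1.85, and without the sex term and without that mouse 39 rose and the median was 2.53, though the remaining mice were P-Apex1KO females and WT males, so that sex and genotype cannot be told apart there. Leaving out P-Apex1KO replicate 1 while keeping the sex term gave 31 called members. For DESeq2, the unadjusted p and these other fits the share of all genes is not given here. Their counts are therefore not read as a result about the members. In 8 members the groups did not overlap, all with P-Apex1KO above WT, against 18.5% of all genes tested.

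**Figure D1:**
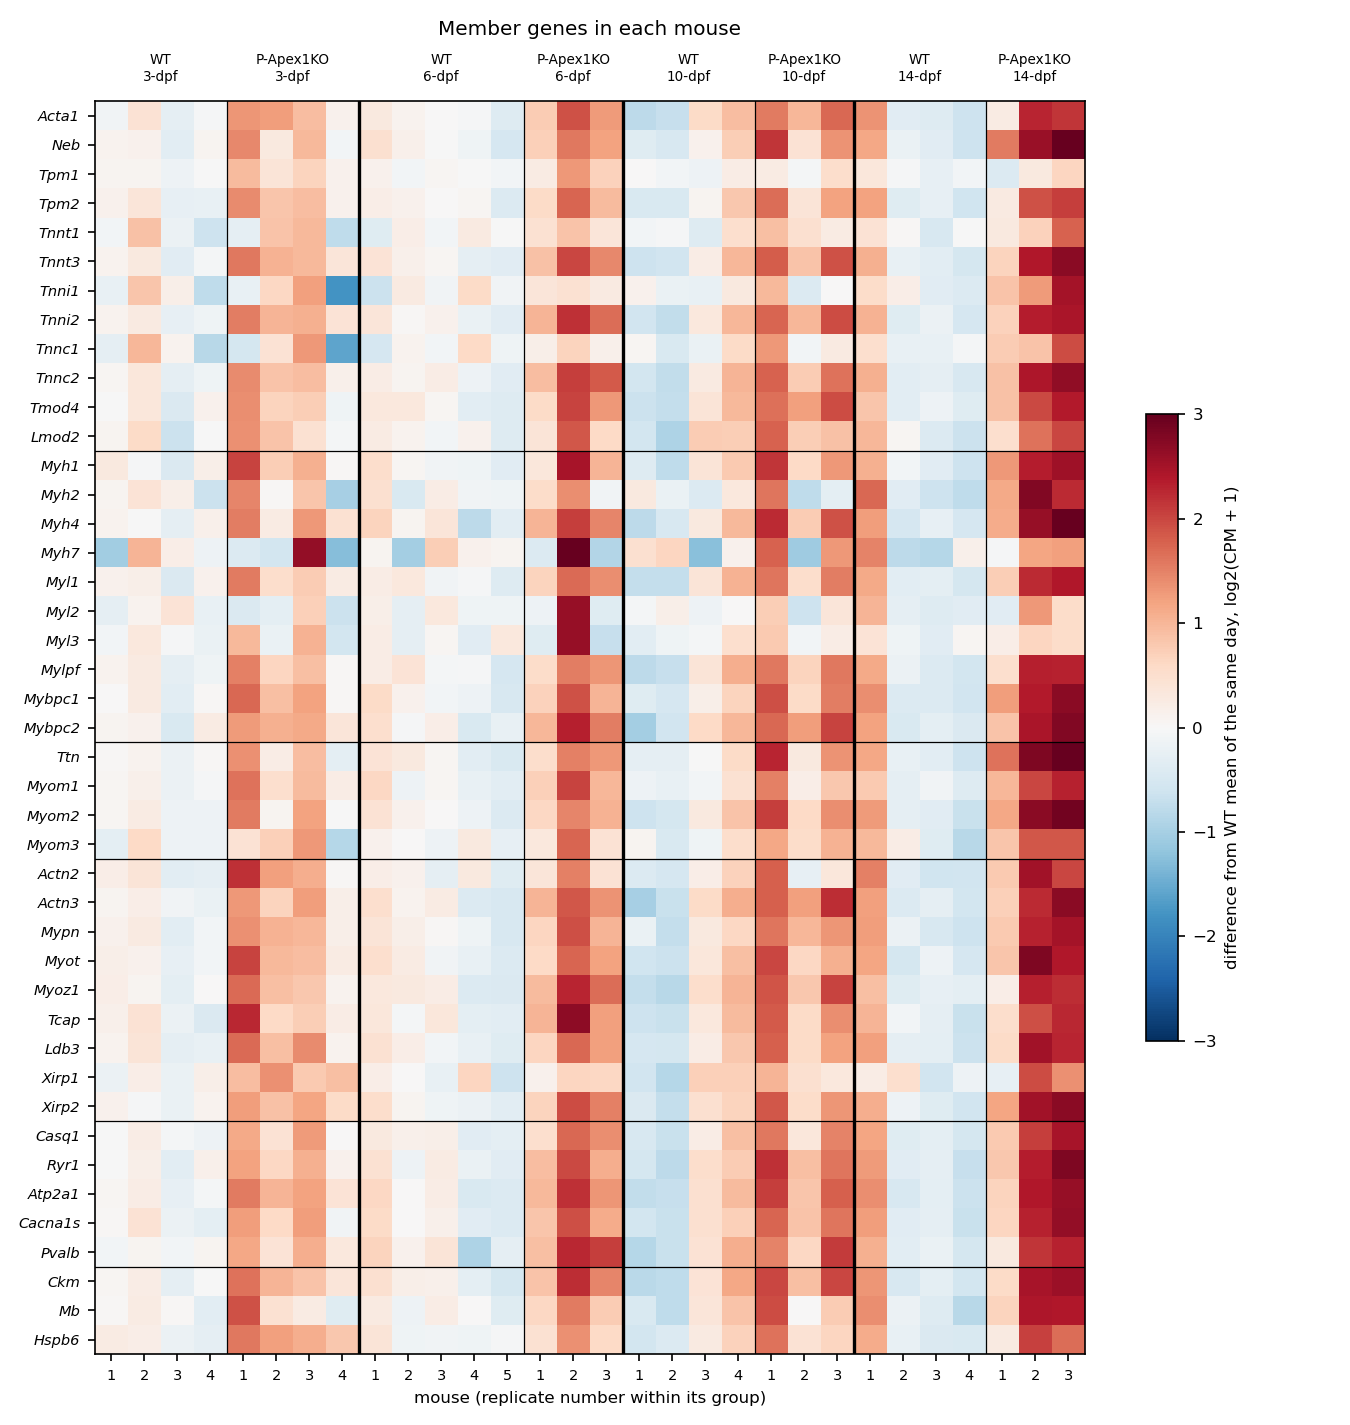
Level of each of the 43 members (rows, grouped by role from the thin filament at the top to Ckm, Mb and Hspb6 at the bottom) in each of 30 mice (columns, by day and genotype), as the difference in log2(CPM + 1) from the WT mean of the same day, with colours capped at 3 in either direction. Most rows share the pattern of a column: P-Apex1KO replicate 2 is the darkest at 6-dpf and WT replicate 1 stands apart from the other WT mice at 14-dpf.

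**Figure D2:**
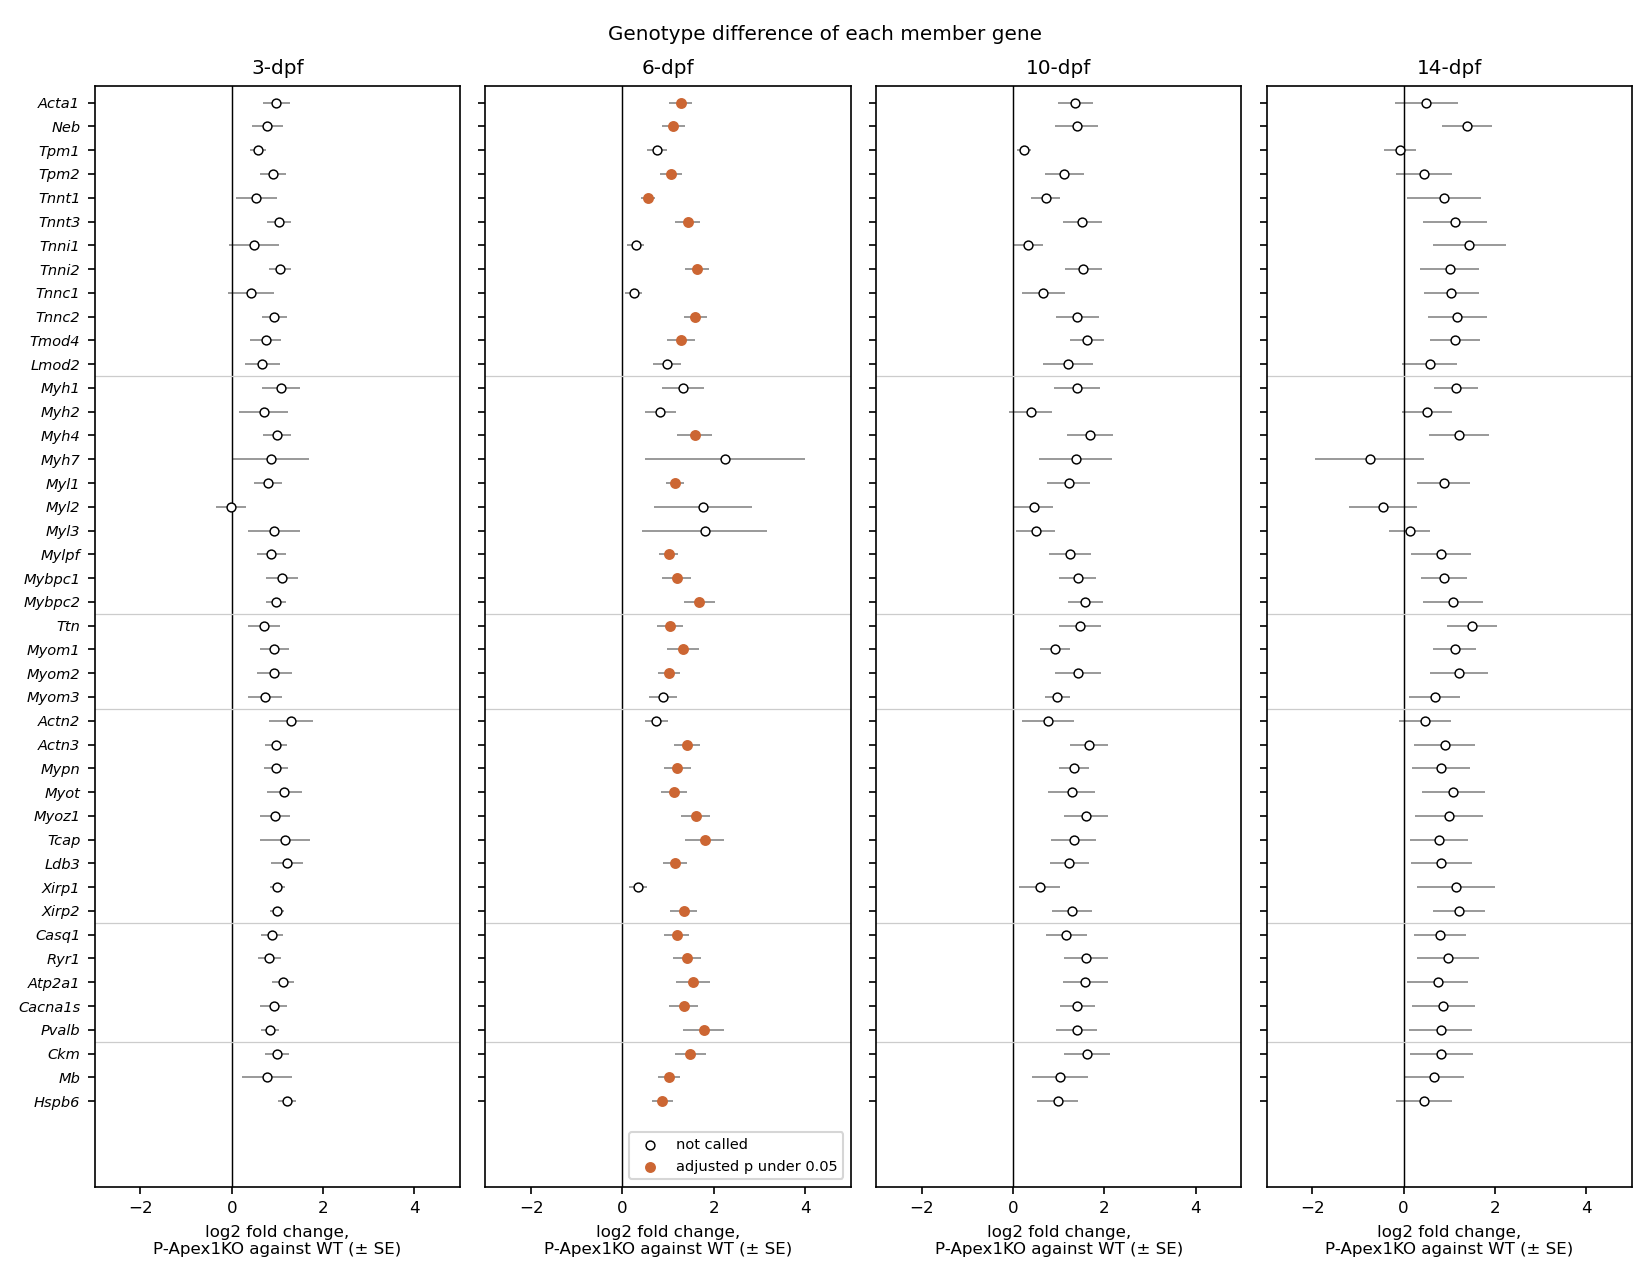
Log2 fold change of P-Apex1KO against WT (horizontal axis, bars are ± SE) for each member (vertical axis, same order) at each day, with filled points for an adjusted p under 0.05. Filled points occur at 6-dpf, for 31 members, and the slow-fibre genes Myh7, Myl2 and Myl3 have the widest bars there.

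Of the thin filament genes, 8 of 12 rose at 6-dpf. Acta1 (GRCm39 chromosome 8, 124618501 to 124623661) is the skeletal muscle alpha-actin that forms the filament itself. Its mean level per kb of exon over all days was the highest of the members, 365.8 CPM against 327.6 for Mylpf. By this measure Mylpf was above Acta1 in every mouse at 10- and 14-dpf. It was also above Acta1 in WT replicate 2 at 6-dpf (341.3 against 337.2). The measure divides by the merged exons of all annotated transcripts, 3715 bases for Acta1 and 1219 for Mylpf. By CPM alone Acta1 was above Mylpf in each of these mice, so their order depends on the lengths used. At 3-dpf Acta1 read 1246, 1810, 1111 and 1324 CPM in WT and 3400, 3195, 2580 and 1468 CPM in the mice labelled P-Apex1KO. At 6-dpf it read 1445, 1253, 1182, 1140 and 902 CPM in WT and 1986, 4371 and 2848 CPM in P-Apex1KO. The groups overlapped through 1 mouse at 3-dpf and did not overlap at 6-dpf, where the log2 fold change was 1.28 ± 0.25 (SE; adjusted p = 0.0128, edgeR). At 10-dpf Acta1 read 189, 202, 490 and 624.8 CPM in WT against 974, 657 and 1087 CPM in P-Apex1KO. At 14-dpf it read 884, 274, 263 and 226 CPM in WT against 411, 1694 and 1535 CPM in P-Apex1KO. Every P-Apex1KO mouse was above every WT mouse at 10-dpf (log2 fold change 1.36 ± 0.38 SE, adjusted p = 0.0864 by edgeR), whereas at 14-dpf P-Apex1KO replicate 1 lay below the WT female (0.49 ± 0.69 SE, adjusted p = 0.690 by edgeR).

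Tnnc2 and Tnni2, both fast troponin genes, had the smallest adjusted p-values of the members at 6-dpf. Tnnc2, the calcium-binding troponin C of fast fibres, led. It read 39.3, 35.6, 39.0, 29.9 and 26.1 CPM in WT and 64.3, 144 and 122 CPM in P-Apex1KO, a log2 fold change of 1.59 ± 0.25 (SE; adjusted p = 0.00615, edgeR). Tnni2, the inhibitory subunit of fast fibres, rose 3.10-fold (log2 fold change 1.63 ± 0.27 SE, adjusted p = 0.00727 by edgeR). Tnnt3, the fast tropomyosin-binding subunit, rose 2.69-fold (1.43 ± 0.27 SE, adjusted p = 0.0128 by edgeR). Neb, the giant ruler protein of the thin filament, rose 2.17-fold, Tpm2, a tropomyosin, 2.09-fold, and Tmod4, which caps the pointed filament end, 2.44-fold. Tnnt1, the slow troponin T, was the 1 slow gene of the thin filament that rose, by 0.56 on the log2 scale from a mean of 8.52 CPM in WT to 13.0 CPM. The other slow subunits overlapped between genotypes at 6-dpf: Tnni1 had a log2 fold change of 0.29 ± 0.19 (SE; adjusted p = 0.387) and Tnnc1, which is also the troponin C of heart, the smallest of all members at 0.25 ± 0.19 (SE; adjusted p = 0.459). Tpm1 missed the threshold at 6-dpf (0.76 ± 0.21 SE, adjusted p = 0.0514) and was the member with the smallest difference at 10-dpf, 0.25 ± 0.16 (SE; adjusted p = 0.381). It is a tropomyosin that many cell types other than muscle make, and its spread between mice was the lowest of the set. Lmod2, a leiomodin that nucleates actin, had values of 24.2 to 68.2 CPM in P-Apex1KO and 13.8 to 21.7 CPM in WT (adjusted p = 0.0758).

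Of the thick filament genes, 5 of 10 rose at 6-dpf. Myh4, the myosin heavy chain of the fastest fibres (IIb; chromosome 11, 67128336 to 67151274), is next to Myh1 (IIx) and Myh2 (IIa) in the genome. At 3-dpf Myh4 read 752, 695, 578 and 775 CPM in WT and 2029, 827, 1724 and 949 CPM in the mice labelled P-Apex1KO. At 6-dpf it read 1169, 770, 945, 423 and 590 CPM in WT and 1495, 3084 and 2038 CPM in P-Apex1KO. On both days every P-Apex1KO value was above every WT value, and at 6-dpf Myh4 rose 3.00-fold (log2 fold change 1.59 ± 0.38 SE, adjusted p = 0.0314 by edgeR). At 10-dpf it read 197, 242, 414 and 660 CPM in WT against 1599, 572 and 1274 CPM in P-Apex1KO, and had the largest log2 fold change of the members on that day, 1.68 ± 0.51 (SE; adjusted p = 0.108, edgeR). At 14-dpf it read 897, 262, 314 and 263 CPM in WT against 809, 2297 and 2990 CPM in P-Apex1KO (1.21 ± 0.65 SE, adjusted p = 0.281 by edgeR). The overlap on these 2 days came from 1 P-Apex1KO mouse each.

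Myl1 and Mylpf, the essential and regulatory light chains of fast myosin, rose 2.23-fold (adjusted p = 0.00804) and 2.02-fold (adjusted p = 0.0159) at 6-dpf. Mybpc1 and Mybpc2, the slow and fast myosin-binding proteins C that tune the cross-bridges, rose 2.28-fold and 3.22-fold. Myh1 and Myh2 had values above those of WT in 2 of 3 P-Apex1KO mice each, with log2 fold changes of 1.33 ± 0.46 (SE; adjusted p = 0.0988) and 0.83 ± 0.34 (SE; adjusted p = 0.155). The coding sequences of these genes are close, with 90.3% identity between Myh4 and Myh1, 88.2% between Myh4 and Myh2 and 91.1% between Myh1 and Myh2. Of the stretches of 59 bases, the read length, in the Myh4 transcript 8.28% occur unchanged in that of Myh1 and 7.28% in that of Myh2, and of those in the Myh1 transcript 13.4% occur in that of Myh2. A single read from such a stretch has no unique place. Reads came in pairs and only uniquely mapped ones were counted, so these shares do not measure an error in the split between the genes. No such stretch of Acta1 is found in Actc1 or Acta2.

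Myh7, the slow and cardiac beta-myosin heavy chain, was low and followed single mice. At 3-dpf it read 0.250, 4.23, 1.99 and 1.32 CPM in WT and 0.947, 0.780, 15.1 and 0.0707 CPM in the mice labelled P-Apex1KO. At 6-dpf it read 2.69, 0.716, 4.84, 2.79 and 2.72 CPM in WT and 1.64, 44.8 and 0.902 CPM in P-Apex1KO. A single P-Apex1KO mouse was far above the rest on each of these days, and the log2 fold change at 6-dpf, the largest of the set, had an error almost as large as itself (2.24 ± 1.76 SE, adjusted p = 0.492 by edgeR) and was -0.99 without that mouse. At 10-dpf Myh7 read 3.78, 4.34, 0.445 and 2.74 CPM in WT against 10.8, 0.634 and 7.40 CPM in P-Apex1KO. At 14-dpf it read 4.04, 0.0464, 0 and 1.00 CPM in WT against 0.759, 3.13 and 3.23 CPM in P-Apex1KO, with the smallest log2 fold change of the members, -0.75 ± 1.20 (SE; adjusted p = 0.733, edgeR), a sign that turned to 0.93 without the sex term. The slow light chains Myl2 and Myl3 were highest in the same mouse at 6-dpf, at 11.1 and 11.04 CPM, where their WT values ran from 0.651 to 1.45 and from 0.559 to 1.45 CPM. Myl2 also had the smallest log2 fold change of the members at 3-dpf, -0.01 ± 0.33 (SE; adjusted p = 0.997), a value that was 0.17 without replicate 4 labelled P-Apex1KO. Myh7 shares 19.3% of its read-length stretches with the heart gene Myh6.

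**Figure D3:**
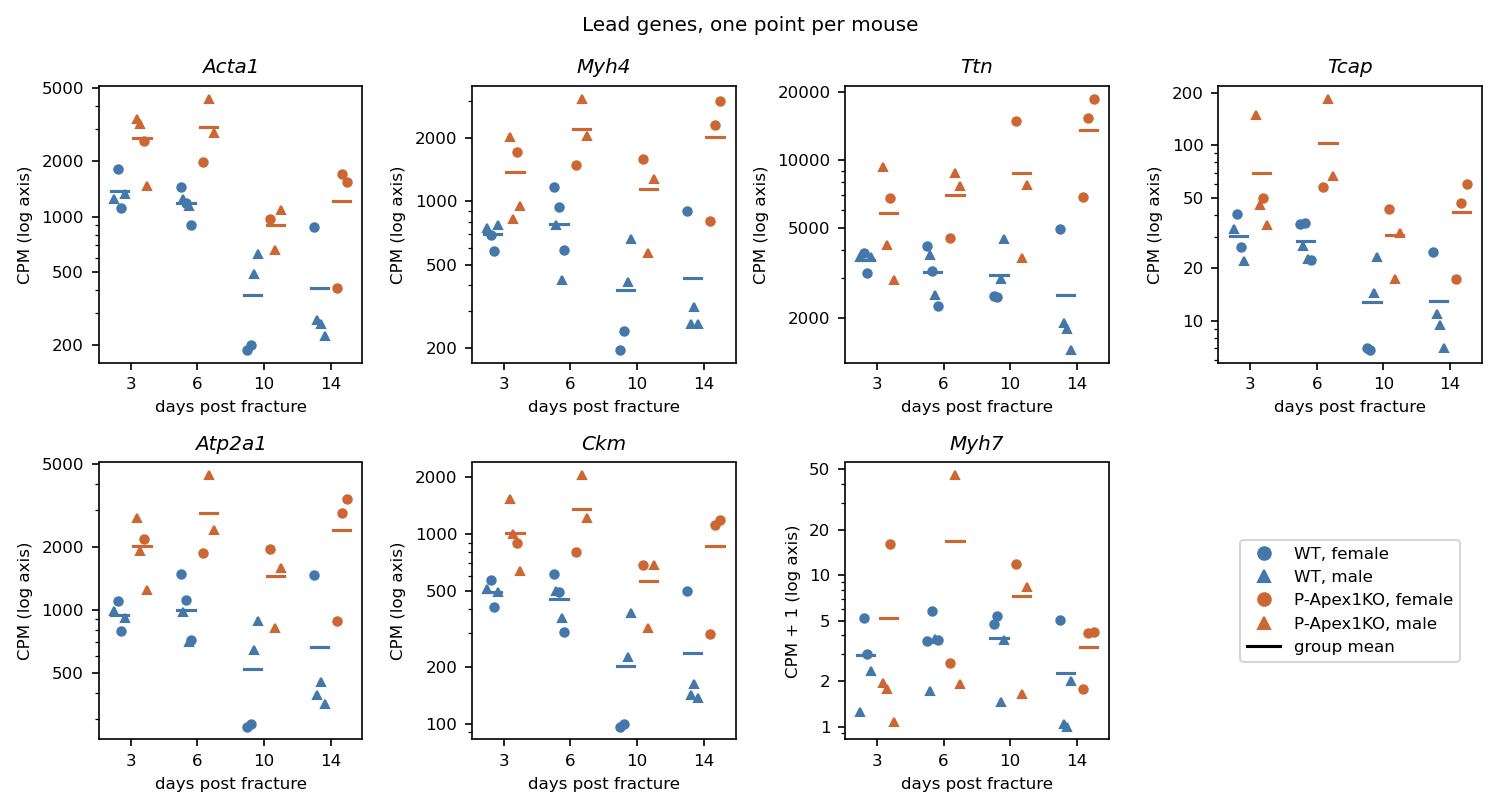
CPM (log axis, CPM + 1 for Myh7) of the 7 lead genes at each day post fracture (horizontal axis), with 1 point per mouse, circles for females, triangles for males, and a line at the group mean. In 6 genes all P-Apex1KO points lie above all WT points at 6-dpf, and in Myh7 1 P-Apex1KO mouse at 44.8 CPM carries the group.

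Of the genes of titin and the M-band, 3 of 4 rose at 6-dpf. Ttn, the elastic protein that sets the length of the sarcomere (chromosome 2, 76534136 to 76812891, with 117522 bases of exon), took 22.3% to 49.1% of the member CPM of a library, which reflects its length. At 3-dpf it read 3724, 3880, 3177 and 3709 CPM in WT and 9321, 4212, 6834 and 2936 CPM in the mice labelled P-Apex1KO. At 6-dpf Ttn read 4150, 3789, 3237, 2517 and 2271 CPM in WT and 4503, 8814 and 7672 CPM in P-Apex1KO. The lowest P-Apex1KO value at 6-dpf was close above the highest WT value, and Ttn rose 2.06-fold (log2 fold change 1.04 ± 0.28 SE, adjusted p = 0.0440 by edgeR). At 10-dpf it read 2512, 2490, 2978 and 4485 CPM in WT against 14841, 3693 and 7747 CPM in P-Apex1KO (1.46 ± 0.46 SE, adjusted p = 0.114 by edgeR). At 14-dpf Ttn read 4971, 1900, 1780 and 1443 CPM in WT against 6899, 15381 and 18750 CPM in P-Apex1KO, without overlap. Ttn had the largest log2 fold change of the members on that day, 1.49 ± 0.54 (SE; adjusted p = 0.127, edgeR), and without the sex term and the WT female it was 3.05 (adjusted p = 0.00151). Myom1 and Myom2, which link myosin filaments at the M-band, rose 2.51-fold and 2.03-fold at 6-dpf, and Myom3 had a log2 fold change of 0.89 ± 0.31 (SE; adjusted p = 0.100).

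Of the Z-disc genes, 7 of 9 rose at 6-dpf. Tcap, or telethonin, which joins the ends of titin in the Z-disc (chromosome 11, 98274637 to 98275779), rose the most of the members called. At 3-dpf it read 33.6, 40.8, 26.4 and 22.0 CPM in WT and 148, 45.9, 50.2 and 35.2 CPM in the mice labelled P-Apex1KO. At 6-dpf Tcap read 35.6, 26.9, 36.1, 22.7 and 22.4 CPM in WT and 58.4, 185 and 66.8 CPM in P-Apex1KO. A single mouse of the P-Apex1KO group led on each day, and the rise at 6-dpf was 3.47-fold (log2 fold change 1.80 ± 0.42 SE, adjusted p = 0.0314 by edgeR). At 10-dpf Tcap read 7.07, 6.85, 14.6 and 23.1 CPM in WT against 43.2, 17.4 and 31.9 CPM in P-Apex1KO (1.33 ± 0.50 SE, adjusted p = 0.170 by edgeR). At 14-dpf it read 24.8, 11.1, 9.46 and 6.995 CPM in WT against 17.3, 47.2 and 60.4 CPM in P-Apex1KO (0.78 ± 0.64 SE, adjusted p = 0.474 by edgeR). Both sets overlapped through 1 P-Apex1KO mouse.

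The other Z-disc genes that rose at 6-dpf were Actn3, the fast-fibre alpha-actinin that cross-links actin (2.67-fold), Myoz1, a calcineurin-binding Z-disc protein (3.04-fold), Mypn (2.30-fold), Myot (2.20-fold) and Ldb3 (2.24-fold), which are scaffold proteins, and Xirp2, an actin-binding repeat protein (2.54-fold). Actn2, an alpha-actinin also made in heart, had the largest log2 fold change of the members at 3-dpf, 1.30 ± 0.48 (SE; adjusted p = 0.768), which was 1.53 without replicate 4 labelled P-Apex1KO (adjusted p = 0.227), and 0.74 ± 0.25 (SE; adjusted p = 0.0873) at 6-dpf. Xirp1, a relative of Xirp2, was the member with the call between days in P-Apex1KO mice. It read 18.8, 24.6, 18.3 and 24.3 CPM in WT and 41.2, 57.0, 37.2 and 40.7 CPM in the mice labelled P-Apex1KO at 3-dpf, without overlap, and 9.87 to 24.9 against 17.3 to 25.2 CPM at 6-dpf. Its log2 fold change was 0.99 ± 0.17 at 3-dpf (SE; adjusted p = 0.722, and 1.03 with an adjusted p of 0.0971 without replicate 4 labelled P-Apex1KO) and 0.34 ± 0.20 at 6-dpf (SE; adjusted p = 0.342), and the difference between these, -0.53 ± 0.29 (SE), did not pass the test (adjusted p = 0.500).

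The calcium-handling genes were the role in which all members rose at 6-dpf, together with the 3 genes of metabolism and chaperone function. Atp2a1, the SERCA1 pump that returns calcium to the reticulum of fast fibres (chromosome 7, 126045013 to 126063423), rose 2.92-fold at 6-dpf (log2 fold change 1.55 ± 0.37 SE, adjusted p = 0.0292 by edgeR). It read 986, 1105, 790 and 910 CPM in WT and 2755, 1914, 2188 and 1246 CPM in the mice labelled P-Apex1KO at 3-dpf. At 6-dpf it read 1484, 974, 1115, 702 and 719 CPM in WT and 1879, 4404 and 2396 CPM in P-Apex1KO. The groups did not overlap on either day. At 10-dpf Atp2a1 read 277, 286, 643 and 886 CPM in WT against 1951, 821 and 1591 CPM in P-Apex1KO (1.58 ± 0.49 SE, adjusted p = 0.111 by edgeR). At 14-dpf it read 1462, 394, 454 and 355 CPM in WT against 880, 2906 and 3400 CPM in P-Apex1KO (0.75 ± 0.67 SE, adjusted p = 0.513 by edgeR). The overlap on the later days came from P-Apex1KO replicate 2 at 10-dpf and replicate 1 at 14-dpf. Ryr1, the release channel, rose 2.66-fold at 6-dpf, Cacna1s, the voltage sensor coupled to it, 2.53-fold, Casq1, the calcium store protein, 2.28-fold, and Pvalb, a soluble calcium buffer of fast fibres, 3.43-fold.

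Ckm, the muscle creatine kinase that regenerates ATP (chromosome 7, 19138701 to 19157965), rose 2.80-fold at 6-dpf (log2 fold change 1.49 ± 0.34 SE, adjusted p = 0.0259 by edgeR). It read 514, 572, 412 and 492 CPM in WT and 1519, 995, 896 and 635 CPM in the mice labelled P-Apex1KO at 3-dpf. At 6-dpf it read 618, 498, 492, 360 and 305 CPM in WT and 805, 2043 and 1211 CPM in P-Apex1KO. As with Atp2a1, the groups did not overlap on either day. At 10-dpf Ckm read 96.7, 99.6, 225 and 384 CPM in WT against 683, 319 and 687 CPM in P-Apex1KO (1.62 ± 0.51 SE, adjusted p = 0.114 by edgeR). At 14-dpf Ckm read 500, 142, 162 and 137 CPM in WT against 298, 1110 and 1178 CPM in P-Apex1KO (0.82 ± 0.69 SE, adjusted p = 0.483 by edgeR). Again 1 P-Apex1KO mouse fell within the WT range on each of the later days. Mb, the oxygen store myoglobin, rose 2.02-fold at 6-dpf and Hspb6, a small heat shock protein, 1.83-fold.

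Fast-fibre members outnumbered slow-fibre members among the calls. Of 13 members typical of fast fibres 11 rose at 6-dpf, all but Myh1 and Myh2, with a median log2 fold change of 1.43. Of 6 members listed as typical of slow fibres 1 rose, Tnnt1, and the median was 1.16. Mybpc1, the slow myosin-binding protein C, was in neither list. It also rose at 6-dpf, and read 86.8 to 182 CPM in the WT mice of that day. The 6 listed slow genes were scarce, with a summed level of 4.01 to 53.5 CPM in WT mice and 7.92 to 118 CPM in P-Apex1KO mice over the 4 days. The fast genes summed to 1289 to 5184 and 3342 to 15170 CPM. Whether the fast and slow members differed in response was not tested. By level per kb, Myh4 made up 46.5% to 82.0% of the adult myosin heavy chain of a mouse, Myh1 15.4% to 37.8%, Myh2 0.775% to 15.2% and Myh7 at most 0.697%. By this measure the order IIb above IIx above IIa held in all 30 mice. The merged exons used were 6627 bases for Myh4, 8908 for Myh1 and 8614 for Myh2. The coding lengths were 5817, 5826 and 5826 bases. In WT replicate 1 at 10-dpf Myh1 had more CPM than Myh4, 214.8 against 196.6, so there the order rests on the lengths. The highest Myh2 shares, 15.2% and 11.1%, were those of the 2 WT females at 10-dpf, whose adult myosin levels were 63.8 and 62.3 CPM per kb where the 2 WT males of that day had 109.5 and 164.1.

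**Figure D4:**
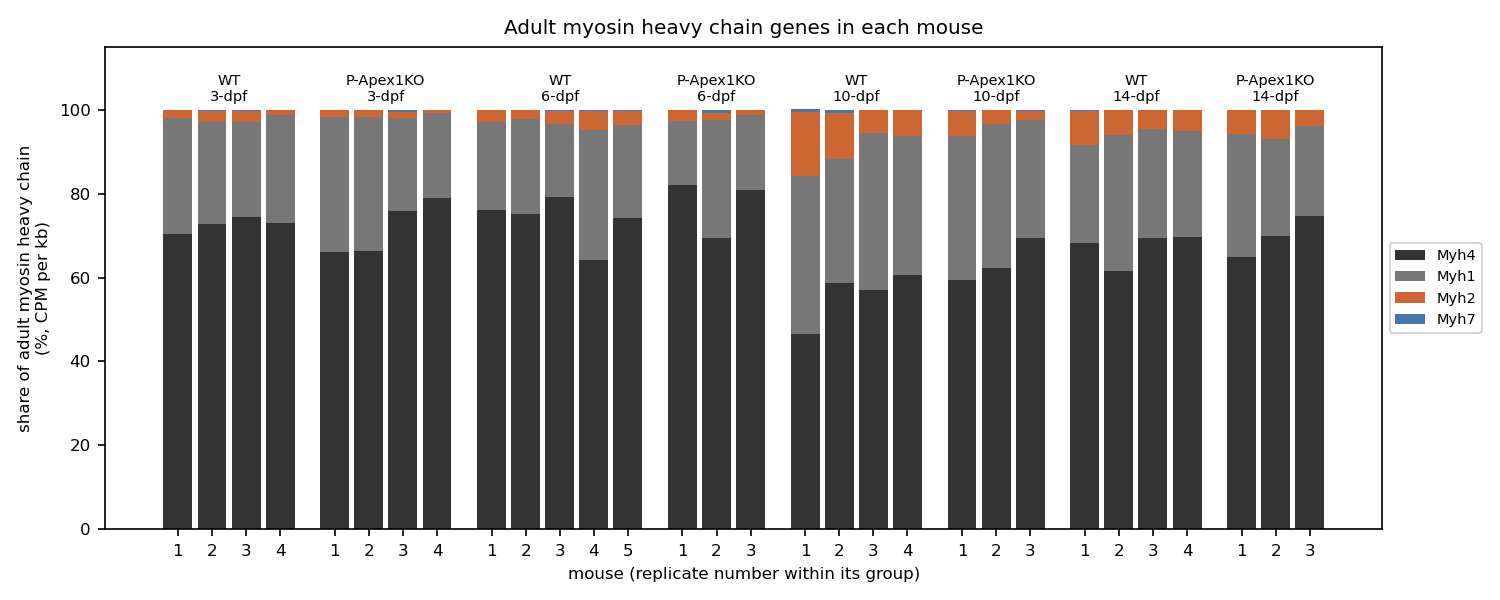
Share of each adult myosin heavy chain gene in the sum of the 4, by CPM per kb of exon (vertical axis, percent), in each of 30 mice (horizontal axis, by day and genotype). Myh4 is the largest part in every bar, Myh7 is hardly visible, and WT replicates 1 and 2 at 10-dpf have the largest Myh2 shares, 15.2% and 11.1%.

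Members varied between mice of a group more than most genes. The standard deviation of log2(CPM + 1) around the group means was 0.650 for the median member, against 0.186 for the median of the 15935 genes whose mean reached 1 CPM. In 42 members it was above 0.378, the value that 90% of those genes stay below, and it ran from 0.303 for Tpm1 to 1.30 for Myh7. The mice kept their order across members. P-Apex1KO replicate 2 at 6-dpf was the highest of its group in all 43 members, WT replicate 1 at 14-dpf in 42 (all but Xirp1), and WT replicate 4 at 10-dpf in 40. P-Apex1KO replicate 1 at 14-dpf was the lowest of its group in all 43, and replicate 4 labelled P-Apex1KO at 3-dpf and P-Apex1KO replicate 2 at 10-dpf in 41 each. Since the members share their mice, a count of members called is not a count of independent results.

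Changes between days passed the test for 1 member in each of 2 comparisons. Libraries of 3- and 6-dpf carry names in one style and those of 10- and 14-dpf in another, so 6- and 10-dpf were not compared. From 3- to 6-dpf no member passed the test in WT mice, where 15.4% of 20468 genes rose and 15.1% fell (1 member had an unadjusted p under 0.05, and DESeq2 called 0). Without WT replicate 4 at 6-dpf 1 was called. In P-Apex1KO mice 1 member fell, Xirp1, by 0.95 ± 0.22 on the log2 scale (SE; adjusted p = 0.0112, edgeR), where 7.1% of genes rose and 6.91% fell. The count was 1 also without replicate 4 labelled P-Apex1KO at 3-dpf. It was 10 without replicate 1 and 2 without replicate 3 of that group, and 5 and 2 without P-Apex1KO replicates 1 and 3 at 6-dpf. The shares of all genes called with a mouse left out are not given here, so these counts are not read as a result about the members. From 10- to 14-dpf 1 member fell in WT mice, Tnni1, by 1.68 ± 0.45 on the log2 scale (SE; adjusted p = 0.0331, edgeR), where 6.19% of 19705 genes rose and 4.92% fell. Tnni1 read 6.42, 4.89, 4.85 and 7.31 CPM at 10-dpf and 2.92, 2.04, 1.09 and 1.00 CPM at 14-dpf in WT, without overlap, and the call was lost without any 1 of WT replicates 1, 2, 3 and 4 at 14-dpf or 3 and 4 at 10-dpf. In P-Apex1KO mice no member passed between 10- and 14-dpf (0.0304% of genes rose and 0.228% fell; 1 member had an unadjusted p under 0.05, and DESeq2 called 0). A change of the genotype difference itself, between 3- and 6-dpf or between 10- and 14-dpf, passed the test for 0 of 43 members (unadjusted p under 0.05 in 1 and 0 members, DESeq2 0 and 0), where 0.318% and 0.987% of genes passed upward and downward between 3- and 6-dpf and 0.0406% and 0.396% between 10- and 14-dpf.

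Other genes of muscle fibres, outside the 43, were also higher at 6-dpf. Of 40 such genes 25 rose at 6-dpf and none fell, with a median log2 fold change of 1.02 against 0.01 for all genes tested. The most abundant of them, Des, the intermediate filament desmin, read 295 to 537 CPM in WT and 683 to 1329 CPM in P-Apex1KO at 6-dpf (log2 fold change 0.97 ± 0.20 SE, adjusted p = 0.0156 by edgeR). At 10-dpf 3 of the 40 rose, Des (1.55 ± 0.34 SE, adjusted p = 0.0491), Sgca and Unc45b. At 3- and 14-dpf none was called, with 40 and 39 of 40 values above 0.

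Among genes of muscle stem cells, myoblasts and new fibres few passed the test. Of 16 such genes 1 rose at 6-dpf, Chrna1, an acetylcholine receptor subunit (0.75 ± 0.19 SE, adjusted p = 0.0346), and the list's median was 0.27. Pax7, the marker of satellite cells, had a log2 fold change of 0.53 ± 0.29 at 6-dpf (SE; adjusted p = 0.288). Myod1 and Myog, the factors of commitment and differentiation, had 0.46 ± 0.19 (SE; adjusted p = 0.153) and 0.28 ± 0.22 (SE; adjusted p = 0.476). Myh3 and Myh8, the embryonic and perinatal myosins, had 0.26 ± 0.28 (SE; adjusted p = 0.620) and -0.09 ± 0.23 (SE; adjusted p = 0.860). At 10-dpf Chrna1 and Myf6 rose, and Mef2c, the most abundant of the list and also made by cartilage cells, and Cdh15, a cadherin of myoblasts, fell, and at 14-dpf Cdh15 fell, while the list's median was 1.32. Both embryonic isoforms were above WT in every P-Apex1KO mouse at 14-dpf, Myh3 at 5.27 to 20.4 against 0.743 to 2.58 CPM and Myh8 at 11.02 to 34.6 against 0.941 to 3.94 CPM, without passing the test (adjusted p = 0.150 and 0.0894). Whether the mature and the embryonic genes differed in response was not tested.

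Markers of other cell types were measured beside the members. At 6-dpf 5 of 6 Schwann cell genes and 3 of 5 adipocyte genes rose, and their summed levels were 269 to 389 against 207 to 287 CPM and 114 to 207 against 75.7 to 170 CPM in P-Apex1KO against WT. Of the macrophage genes 4 of 5 rose, with sums of 656 to 763 against 364 to 510 CPM. The cartilage list fell in all 7 genes, to a sum of 1702 to 3170 CPM against 26075 to 48588 CPM in WT, and 6 of 7 osteoblast genes fell. Of 5 tendon genes, 5 endothelial genes and the heart isoforms none was called, and of 9 smooth muscle genes 1 rose, Synm. At 10-dpf 4 of 5 adipocyte and 3 of 6 Schwann cell genes rose, and 5 of 7 osteoblast genes fell. At 14-dpf all 7 cartilage genes were called higher in the fit with sex, which rests on the 1 WT female, while their summed levels overlapped, at 5420 to 8307 CPM in P-Apex1KO and 1395 to 7723 CPM in WT. Of the osteoblast genes 4 of 7 fell at 14-dpf, with sums of 17506 to 19027 against 70558 to 96280 CPM. The part that the make-up of the dissected tissue had in the level of the sarcomere genes was not tested.

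**Figure D5:**
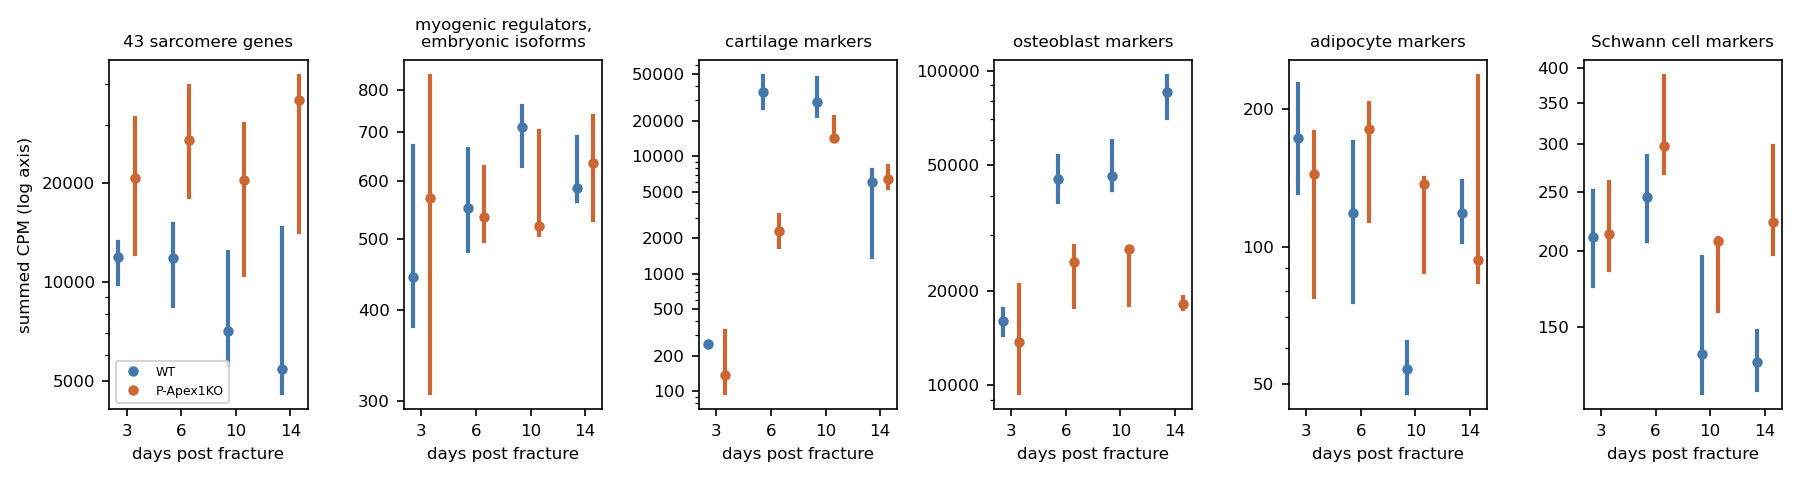
Summed CPM (log axis, a scale of its own in each panel) of the 43 sarcomere genes and of 5 other lists at each day post fracture, as the median (point) and the range from the lowest to the highest mouse (bar) of WT and P-Apex1KO. The sarcomere bars are apart at 6-dpf, with 18187 to 39553 CPM above 8469 to 15017 CPM, where the bars of the myogenic list overlap and those of cartilage and osteoblast markers lie lower in P-Apex1KO. Mef2c, which cartilage cells also make, had a mean of 389.5 CPM over all mice, where the myogenic sum at 6-dpf was 482 to 665 CPM in WT. The overlap of that sum therefore says little about the other genes of the list.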

How the data were processed

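RNA-seq of mouse callus (ribosomal RNA depleted, stranded) was mapped by the authors to mm39 (GRCm39) with STAR and counted per gene, by strand and over uniquely mapped reads, with featureCounts. The submitters' processing notes name STAR 2.7.0d, bcl2fastq 2.20 and DESeq2 1.32.0. The deposited table holds raw counts for 30 samples. Replicates are separate mice.

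From these counts, each time point was fitted in edgeR 4.0.16 (R 4.3.3; filterByExpr, TMM, genotype and sex, robust quasi-likelihood test, Benjamini-Hochberg over all genes, threshold 0.05), after a check on simulated counts. Time and interaction contrasts were fitted within 3- and 6-dpf and within 10- and 14-dpf. CPM used TMM factors of all 30 libraries, and CPM per kb the merged exon length of GENCODE M39. Members and lists were chosen with earlier results of these data known. Promoter windows came from a RefSeq table of the build GRCm38.p6. All 43 members were named. Lead genes, the extremes of each time point and the 5 smallest adjusted p-values were given with values. Precision is that of 18334389 to 43111491 counts per library, and errors between mice are larger.

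Alternatives were DESeq2 1.42.0, no sex term, DESeq2 size factors, library size alone, TMM without the members, no filter, all samples in 1 model, the replicate number as a block, and each mouse left out. Same-numbered mice of the 2 genotypes deviated together at 3-dpf (correlations over genes of 0.546, 0.163, 0.226 and 0.144), so the numbers were taken to pair them there, from the data and not from the labels, and not on other days. At 3-dpf replicates 1, 3 and 4 also had the same sex in both genotypes, which the check did not remove.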

Additional observations from a re-analysis of the deposited data

Results flagged for a closer look

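For the 7 lead genes and the summed member level, the mouse farthest from its group was compared with its neighbour in each of 5 groups of 4 or 5 mice, 40 comparisons in all, of which 8 had a gap too large for the range of the group. Chance alone gives such a gap in about 1 group in 20. In 6 of the 8 it was the WT female at 14-dpf, replicate 1: 884 CPM of Acta1 against 274 in the next mouse, 897 of Myh4 against 314, 4971 of Ttn against 1900, 1462 of Atp2a1 against 454, 500.3 of Ckm against 162, and 14643 CPM of all members against 5525. These 6 values are of 1 library. The other 2 were at 3-dpf in mice labelled P-Apex1KO, replicate 1 with 148 CPM of Tcap against 50.2 in the next mouse and replicate 3 with 15.1 CPM of Myh7 against 0.947.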

How the results depend on the processing

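The members' median log2 fold change stayed above 0 in each alternative run at each day. At 14-dpf it moved from 0.87 to 1.85 without the sex term, 1.78 with all samples in 1 model, and 2.53 without the sex term and without WT replicate 1, an alternative chosen after seeing the data. With a mouse left out it ran from 0.67 to 1.09 at 3-dpf, 0.90 to 1.62 at 6-dpf, 0.41 to 1.70 at 10-dpf and 0.52 to 1.25 at 14-dpf. Counts of members called with a mouse left out ran from 0 to 1 at 3-dpf, 3 to 33 at 6-dpf, 0 to 29 at 10-dpf and 0 to 31 at 14-dpf. Between 3- and 6-dpf they ran from 0 to 1 for WT and 1 to 10 for P-Apex1KO, and between 10- and 14-dpf from 0 to 1 for WT. The shares of all genes called in these fits are not given here, so the counts are not read as a result about the members. At 14-dpf the fit without WT replicate 1 and with the sex term could not be fitted, since all remaining females were P-Apex1KO.

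DESeq2 called 13 members at 3-dpf, 12 at 10-dpf, 5 at 14-dpf, 6 in P-Apex1KO between 3- and 6-dpf and 2 in WT between 10- and 14-dpf. Without the filter 5 were called at 6-dpf and 0 in WT between 10- and 14-dpf. With all samples in 1 model 4 were called at 10-dpf and 36 at 14-dpf, without the sex term 24 at 14-dpf, and without the sex term and WT replicate 1 39. With library size alone 1 was called in WT between 3- and 6-dpf, a scaling that moved the median of all genes by 0.20 at 6-dpf, 0.31 at 14-dpf and -0.27 in that contrast. The cause of these changes was not tested. The shares of all genes called in the alternatives are not given here, so these counts are not read as a result about the members.

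With the replicate number as a block in place of sex, 1 member was called at 3-dpf, 2 at 6-dpf and 26 at 10-dpf, the median at 14-dpf was 1.78, and Myh7 read -0.04 at 3-dpf and 2.32 at 14-dpf. These counts too come without the share of all genes and are not read as a result about the members. The replicate numbers were taken to pair the mice at 3-dpf by the check given with the methods, which does not establish a pairing. On the other days they were taken as names only. There the correlations ran from -0.396 to 0.304, and 0 of 6, 2 of 6 and 0 of 6 mice correlated best with the mouse of their own number (5 of 8 at 3-dpf). Among lead genes only Myh7 changed sign: besides these it did so at -0.34 without P-Apex1KO replicate 3 at 3-dpf (up to 1.89 with another mouse left out), -0.99 without P-Apex1KO replicate 2 at 6-dpf (up to 3.73), and at 14-dpf with 0.93 without the sex term, 0.02 with all samples in 1 model and 2.72 without the sex term and WT replicate 1. Depth limits Myh7, Myl2 and Myl3, which had few counts in many libraries.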

Other observations

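The level of Acta1 against Ttn and Neb differed between the early and the late libraries. Ttn CPM divided by Acta1 CPM was 1.32 to 3.02 in the 16 mice of 3- and 6-dpf and 5.62 to 16.8 in the 14 mice of 10- and 14-dpf, without overlap, and Neb CPM divided by Acta1 CPM was 0.289 to 0.687 and 0.993 to 2.82. Mylpf is another short member. In WT the Ttn to Mylpf ratio was 10.6 to 13.3, 8.28 to 11.4, 11.9 to 24.5 and 12.9 to 14.5 at 3-, 6-, 10- and 14-dpf. The Neb to Mylpf ratio in WT was 2.25 to 2.84, 1.91 to 2.73, 2.26 to 3.89 and 2.28 to 2.50. In WT the 3-dpf range thus overlapped the late ranges for both genes, while the 6-dpf range of Ttn lay below them. In P-Apex1KO the Ttn to Mylpf ratio was 8.83 to 12.1 and 9.75 to 9.77 at 3- and 6-dpf. It was 13.2 to 27.8 and 18.7 to 29.5 at 10- and 14-dpf, without overlap with the early days. The Neb to Mylpf ratio in P-Apex1KO overlapped between 6-dpf (2.09 to 2.52) and 10-dpf (2.44 to 4.26). The change against Acta1 falls where the naming of the libraries changes, so the time after fracture and the handling of the 2 sets of libraries cannot be told apart. Within 14-dpf the Ttn to Acta1 ratio was 5.62, 6.94, 6.77 and 6.37 in WT and 16.8, 9.08 and 12.2 in P-Apex1KO, and within 10-dpf it was 13.3 and 12.3 in the 2 WT females against 6.07 and 7.18 in the 2 WT males. These values were picked after they were seen and were not tested.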
